A study of Mus musculus with 10 samples.

Results

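Aminoacyl-tRNA synthetases were followed in a table of messenger RNA levels from mouse small-intestinal epithelial cells. The 36 members, 20 cytosolic and 16 mitochondrial, were found by gene symbol among 24839 rows, and every one had a row of its own. Each library was made from poly-A selected RNA of one sample, and values are FPKM, mapped fragments divided by transcript length and by the size of the library. The 5 libraries titled NCD carry the treatment label untreated, and the 5 titled HCD, which stands for high cellulose diet, carry the label OVA. OVA is ovalbumin, a protein of egg white with which food allergy is modelled in mice. The described design fed both diets for 60 days, and OVA mice were injected on days 0 and 14 with 50 µg of OVA and 1 mg of alum before 5 oral doses of 50 mg. Saline stood in for OVA in the other groups. The titles name no OVA and the design has 4 groups, so the labels leave it uncertain whether the HCD libraries come from mice with or without OVA. If the treatment label holds, diet and OVA differ together and cannot be told apart, and neither can handling, since the column numbers run from 1 to 10 in NCD and from 11 to 20 in HCD. The genotype label holds no genotype, the sources used here give no strain, sex or age, and no label says that each library is a separate animal. The p-values therefore measure the spread between these libraries.

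Aminoacyl-tRNA synthetases join each amino acid to its transfer RNA, the step that fixes which codon stands for which amino acid. Most amino acids have a pair of nuclear-encoded enzymes, a cytosolic one that serves the ribosomes of the cytoplasm and a mitochondrial one, with a symbol ending in 2, that serves the few proteins made inside mitochondria. Gars and Kars are exceptions whose single gene serves both compartments, and mitochondrial glutaminyl-tRNA is made from a glutamyl-tRNA charged by Ears2. Many cytosolic synthetase genes are targets of ATF4, the transcription factor of the amino acid response, which binds a composite C/EBP-ATF sequence near their start sites. In the intestine, whose epithelium is renewed without pause, these enzymes supply a tissue of high protein synthesis.

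That composite sequence was looked for as the letters TGATGNAA on both strands, from 250 bases before to 50 bases after each start site in the RefSeq promoters of build GRCm38.p6, which held 27 of the 36 members. Among members with a promoter there, it was present in 5 of 13 cytosolic ones (38.5%) and in 0 of 14 mitochondrial ones. Counted in the same way, per gene, it was present in 1219 of 27025 genes with a promoter (4.51%). All 5 genes belong to a list of cytosolic members known to respond to ATF4 in other cells. The stretches below are shown because they carry a match in each member that had one. They read 5′ to 3′ on the strand of the gene, with the match in capitals, as 100 bases where the match lies before the start site and as 30 bases where it lies after it. A match is a description of letters and not a binding site, and a window without one says nothing about the factor.
Aars, chr8:111033684-111033783, plus strand: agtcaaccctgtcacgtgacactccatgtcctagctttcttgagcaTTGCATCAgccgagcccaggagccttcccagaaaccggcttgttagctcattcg
Gars, chr6:55037901-55038000, plus strand: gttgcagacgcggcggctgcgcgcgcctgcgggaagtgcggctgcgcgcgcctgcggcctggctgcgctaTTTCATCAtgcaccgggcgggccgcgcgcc
Tars, chr15:11399659-11399758, minus strand: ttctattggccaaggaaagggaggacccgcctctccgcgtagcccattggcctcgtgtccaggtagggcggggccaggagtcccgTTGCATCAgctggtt
Iars, chr13:49682126-49682155, plus strand: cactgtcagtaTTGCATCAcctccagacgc
Yars, chr4:129189895-129189924, plus strand: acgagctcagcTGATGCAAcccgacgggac
The matches of Aars, Gars and Tars lay 104, 22 and 7 bases before the start site, and those of Iars and Yars began at positions 8 and 4 after it. Aars held a further match after its start site. Of the 5, Gars, Iars and Yars were lower in HCD in the test described next, whereas Aars and Tars did not pass it. In that test 11 of 20 cytosolic members and 19.2% of all tested genes were lower. With genes encoded in the mitochondrial genome left out of the scaling, as described below, Iars still passed and Gars and Yars did not. A relation between the match and the difference was not tested.

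The comparison of HCD with NCD asked whether the synthetase transcripts differed between epithelial cells of mice with these titles. Of the 35 members that reached a mean of 1 FPKM and were tested, 16 were lower in HCD and 0 were higher (limma on log2(FPKM + 1), two-sided, Benjamini-Hochberg adjusted p under 0.05 over 10321 tested genes). Among all tested genes 19.2% were lower and 7.13% were higher. At an unadjusted p under 0.05, 1 member was higher, the mitochondrial leucyl enzyme Lars2, and 13 cytosolic and 8 mitochondrial members were lower. The share of all tested genes at that unadjusted threshold was not computed. At the adjusted threshold 11 of 20 members were lower in the cytosolic class, and 5 of 15 in the mitochondrial class. The median difference, HCD minus NCD on the log2 scale, was -0.50 over the cytosolic members, -0.48 over the tested mitochondrial members and -0.19 over all tested genes.

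These counts depend on how the libraries are scaled. Genes encoded in the mitochondrial genome took 3.23% to 5.76% of the summed FPKM in NCD and 14.8% to 29.5% in HCD, and each FPKM value is a share of its library. When these genes were left out of the scaling, all tested genes together had a median of -0.050, and 8.35% of 10308 tested genes were lower while 8.95% were higher. On that scale 3 cytosolic members and 1 mitochondrial member were lower, with class medians of -0.34 and -0.34. After quantile normalization 8.56% of all tested genes were lower, 8.99% were higher and their median was -0.060, and 4 cytosolic and 2 mitochondrial members were lower. The phenylalanyl subunits Farsa and Farsb, the isoleucyl enzyme Iars and the mitochondrial cysteinyl enzyme Cars2 passed on all 3 scales. Of 20 cytosolic members, 20 had a negative difference as deposited and 19 on each of the other scales, where Cars came to 0.0012 with mitochondrially encoded genes left out and the valyl enzyme Vars to 0.024 after quantile normalization. Negative differences were found in 68.1% of all tested genes as deposited, in 55.3% with mitochondrially encoded genes left out and in 56.3% after quantile normalization.

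**Figure D1:**
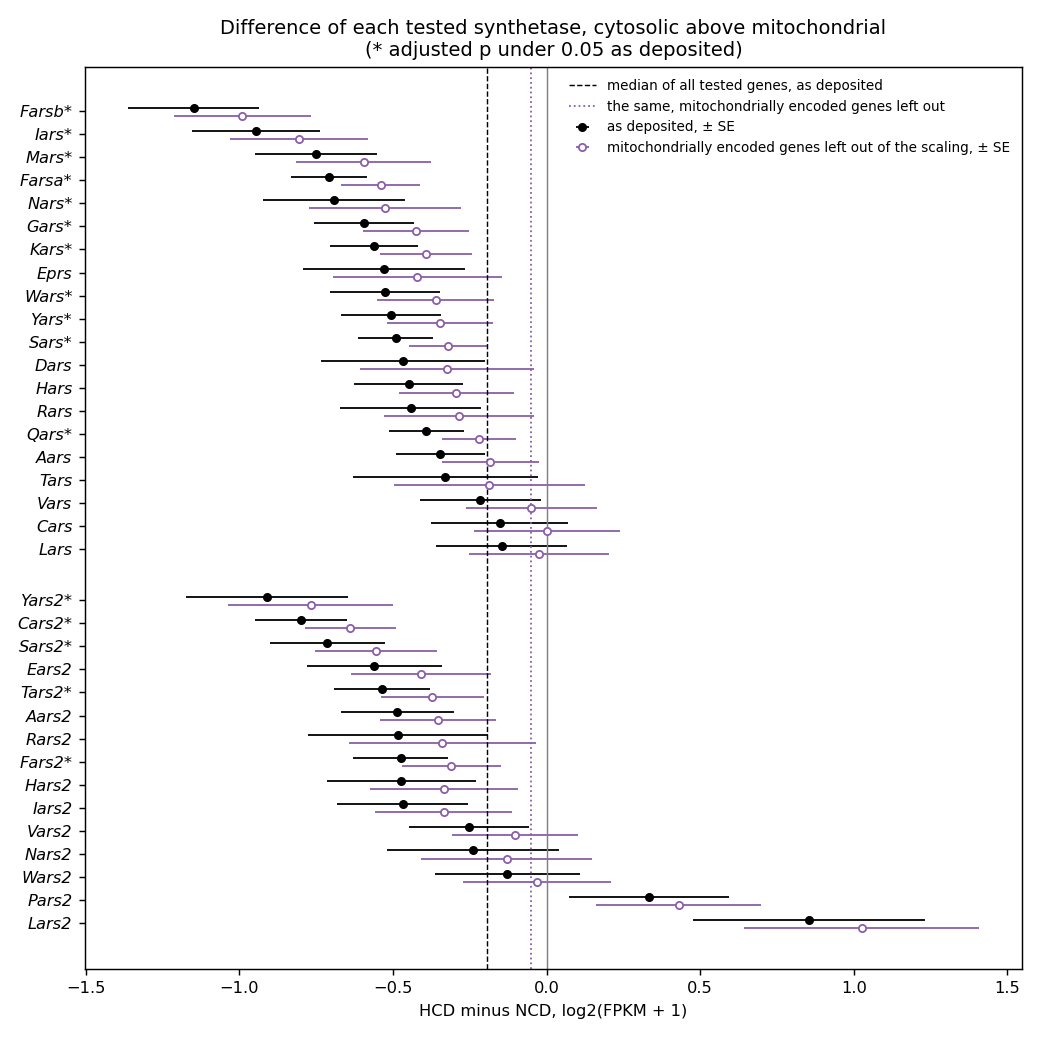
The difference of each of the 35 tested synthetases, HCD minus NCD in log2(FPKM + 1), with its standard error, is drawn as deposited (filled) and with mitochondrially encoded genes left out of the scaling (open). Most points lie left of 0 on both scales, Cars moves to 0.0012 in the open points, and Lars2 at 0.85 and Pars2 at 0.33 lie to the right without an asterisk.

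Other features of the libraries moved with the titles, and their part in the results below was not tested. Sums over T cell markers ran from 282 to 897 FPKM in NCD and from 1890 to 3754 in HCD, with 10 of 10 markers higher against 7.13% of all tested genes, and sums over haemoglobin genes from 15.1 to 41.8 and from 96.6 to 391, with 4 of 4 higher. Sums over 10 epithelial markers ran from 13055 to 16147 FPKM in NCD and from 10942 to 14179 in HCD, with 2 higher and 5 lower against 19.2% of all tested genes lower, and all 10 were detected. Paneth cell markers, the granule genes of the crypt base, summed to 188 to 832 FPKM in NCD and 56.6 to 306 in HCD, with 3 of 5 lower, and of 4 tested markers of dividing cells 2 were lower. Goblet cell markers had 0 of 5 higher or lower, plasma cell markers 1 higher and 1 lower of 4, and myeloid markers 1 higher of 5, and no list had a marker at 0 in every library. In such bulk samples, fewer cells of a type and less RNA per cell cannot be told apart. Column numbers were consecutive for replicates 1 to 3 of each group and, after a gap, for replicates 4 and 5, and no label explains the gap. Within replicates 1 to 3, 6 of 20 cytosolic and 5 of 15 mitochondrial members were lower, against 9.75% of all tested genes, with medians of -0.65 and -0.71. Within replicates 4 and 5, 0 of each were lower, against 0.107% of all tested genes, with medians of -0.27 and -0.11. At an unadjusted p under 0.05, 4 cytosolic members and 1 mitochondrial member were lower there, and 1 mitochondrial member, Lars2, was higher. The share of all tested genes at that unadjusted threshold was not computed.

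Levels differed widely inside each class. Among the cytosolic enzymes the glutaminyl enzyme Qars was the most abundant, and the bifunctional glutamyl-prolyl enzyme Eprs the least. Qars measured 105, 84.1, 92.8, 78.5 and 78.7 FPKM in NCD replicates 1 to 5 and 65.0, 59.3, 62.9, 72.0 and 73.2 FPKM in HCD replicates 1 to 5. All HCD libraries were below all NCD libraries, but HCD replicates 4 and 5 came close to the lowest NCD values. Qars fell by 0.39 ± 0.12 (SE) on the log2 scale (limma, adjusted p = 0.0289), and lost its call on leaving out NCD replicate 1 or 3, or HCD replicate 2 or 3 (adjusted p from 0.0583 to 0.0788). Eprs was at 2.35, 1.61, 3.20, 1.66 and 2.01 FPKM in NCD and at 1.02, 2.64, 0.280, 1.68 and 0.859 FPKM in HCD. Its groups overlapped, with HCD replicate 3 lowest of all and HCD replicate 2 above 4 of the NCD libraries. The Eprs difference of -0.53 ± 0.26 did not pass as tested (limma, adjusted p = 0.150) and passed without HCD replicate 2 (difference -0.72, adjusted p = 0.0460, in a range from 0.0460 to 0.692 over the alternatives). Across the 36 members, longer transcripts tended to have lower NCD levels (Spearman rho -0.43 over 36 genes that share the same libraries, a description without a test). Over the 35 tested members, shorter transcripts tended to have the more negative difference (rho 0.46 between length and HCD minus NCD, likewise a description), and the part of length in the differences was not tested.

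**Figure D2:**
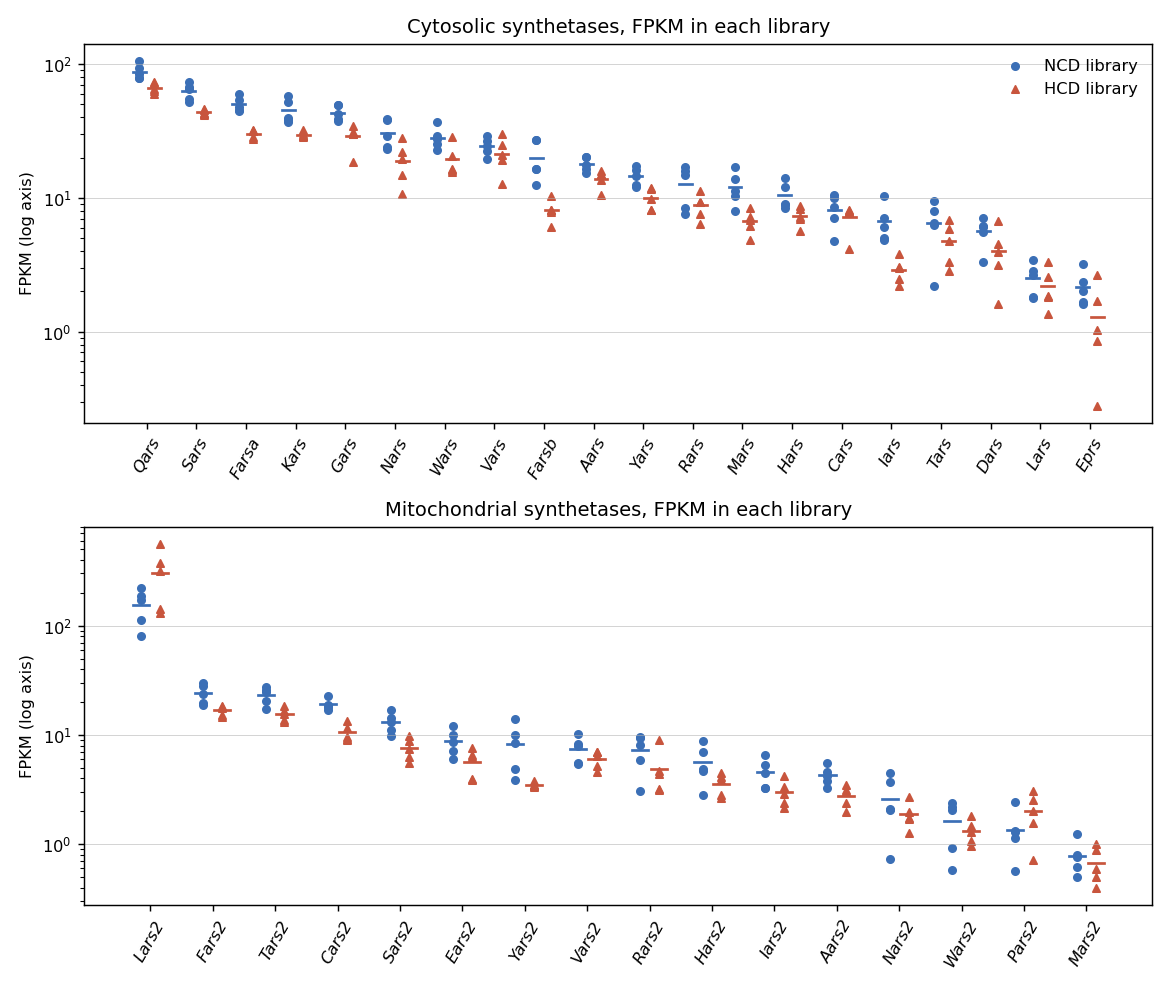
FPKM of each synthetase in each of the 5 NCD (circles) and 5 HCD (triangles) libraries, on a log axis, with horizontal bars for the group means and members ordered by NCD mean. Cytosolic members run from Qars at 87.8 to Eprs at 2.17 FPKM in NCD, and mitochondrial members from Lars2 at 154 to Mars2 at 0.782, with Lars2 standing above every other member.

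The phenylalanyl-tRNA synthetase of the cytosol, built from alpha subunits (Farsa) and beta subunits (Farsb), had the clearest difference. Farsa, at chr8:84856989-84869257 on build GRCm38, measured 60.1, 44.8, 54.3, 47.3 and 45.1 FPKM in NCD and 31.9, 31.7, 28.4, 31.8 and 27.5 FPKM in HCD. The HCD libraries were close together, and the highest of them was well below the lowest NCD library. The mean went from 50.3 ± 6.68 (SD, n = 5) to 30.2 ± 2.13 FPKM, a fall of 0.71 ± 0.12 (SE) on the log2 scale (limma, adjusted p = 0.00151). Farsb, at chr1:78417975-78488897, was at 26.9, 16.4, 27.1, 12.4 and 16.4 FPKM in NCD and at 8.13, 10.3, 8.08, 7.89 and 6.08 FPKM in HCD. Its groups did not overlap as deposited, although NCD replicate 4 came near the highest HCD value, and they overlapped with mitochondrially encoded genes left out of the scaling. The NCD mean was 2.45 times the HCD mean, and the log2 difference of -1.15 ± 0.21 was the largest fall among the members (limma, adjusted p = 0.00236). Both subunits passed in each of the 10 fits that left out 1 library. The ratio of Farsb to Farsa was 0.387 ± 0.091 in NCD and 0.267 ± 0.039 in HCD (SD, n = 5), with values of 0.262 to 0.499 and of 0.221 to 0.324 that overlapped. The annotated Farsb transcript shares 250 bases with the overlapping gene Sgpp2, a phosphatase of phosphorylated sphingosine that was also lower, at 23.2 FPKM in NCD and 11.1 FPKM in HCD (limma, adjusted p = 0.00493), and the sources used here do not say whether counting used strand.

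Iars, the cytosolic isoleucyl enzyme at chr13:49682100-49734267, had the second largest cytosolic fall. It measured 7.12, 5.01, 10.3, 4.87 and 6.09 FPKM in NCD and 2.99, 3.82, 2.20, 2.48 and 3.03 FPKM in HCD. No HCD library reached the lowest NCD library, with or without the mitochondrially encoded genes in the scaling. Iars fell by 0.95 on the log2 scale, with a standard error of 0.21 (limma, adjusted p = 0.00553), and passed in all 10 fits that left out 1 library. Its transcript shares 1656 bases at 96.0% identity with the processed pseudogene Gm4849, which was not analysed here. Iars is one of 8 enzymes held in the multi-synthetase complex, an assembly of synthetases and scaffold proteins. Of these 8 enzymes 4 were lower as deposited, against 19.2% of all tested genes. With mitochondrially encoded genes left out 1 of the 8 was lower, against 8.35%, and after quantile normalization 2, against 8.56%.

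Kars, Mars and Qars were the other 3 of the complex that passed. Kars, which charges lysine tRNAs, was at 58.1, 36.7, 52.4, 39.4 and 38.2 FPKM in NCD and at 32.2, 28.8, 28.9, 28.4 and 29.8 FPKM in HCD. The HCD libraries were tightly grouped below the NCD libraries, of which replicates 1 and 3 were the highest. Kars fell by 0.56 ± 0.14 on the log2 scale (limma, adjusted p = 0.0120). Mars, the methionyl enzyme, which also charges the initiator tRNA, was at 13.9, 10.3, 17.0, 8.01 and 11.3 FPKM in NCD and at 8.34, 7.16, 4.83, 6.19 and 6.79 FPKM in HCD. NCD replicate 4 lay below HCD replicate 1, so the groups overlapped by that pair of libraries. Mars fell by 0.75 ± 0.20 (limma, adjusted p = 0.0146), and both Kars and Mars passed whichever library was left out. With mitochondrially encoded genes left out of the scaling neither passed (limma, adjusted p = 0.0864 for Kars and 0.0779 for Mars). After quantile normalization Mars passed and Kars did not (limma, adjusted p = 0.0369 and 0.129). The Mars transcript shares 68 bases with Ddit3, the stress transcription factor CHOP. Ddit3 was more abundant, at a mean of 87.65 FPKM, and was also lower in HCD, as given below. The part of these shared bases in the Mars difference was not tested. Of the remaining enzymes of the complex, Lars (leucine), Rars (arginine), Dars (aspartate) and Eprs did not pass. Their differences were -0.15, -0.44, -0.47 and -0.53.

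Sars and Gars, the seryl and glycyl enzymes, passed in all 10 fits that left out 1 library. Sars measured 67.1, 73.4, 65.1, 51.9 and 54.9 FPKM in NCD and 45.1, 43.3, 41.7, 46.4 and 42.6 FPKM in HCD. NCD replicates 4 and 5 were the lowest of their group and still above every HCD library. Gars measured 49.2, 37.5, 49.1, 38.8 and 42.3 FPKM in NCD and 29.8, 31.1, 29.9, 18.6 and 34.3 FPKM in HCD. HCD replicate 4 stood apart below the other HCD libraries, and the groups did not overlap. Sars fell by 0.49 ± 0.12 and Gars by 0.60 ± 0.16 on the log2 scale (limma, adjusted p = 0.0103 and 0.0165). Neither passed with mitochondrially encoded genes left out of the scaling (limma, adjusted p = 0.0964 and 0.106) or after quantile normalization (0.181 and 0.162).

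Yars (tyrosine), Nars (asparagine) and Wars (tryptophan) passed more narrowly. Yars was at 17.2, 14.6, 16.3, 12.5 and 12.05 FPKM in NCD and at 11.7, 8.13, 8.08, 9.87 and 11.9 FPKM in HCD. HCD replicate 5 lay just under NCD replicate 5, and no HCD library reached the NCD range. Nars was at 28.9, 24.0, 38.7, 23.3 and 37.9 FPKM in NCD and at 14.9, 22.0, 10.7, 27.9 and 19.6 FPKM in HCD. Here HCD replicate 4 lay above NCD replicates 2 and 4. The log2 differences were -0.51 ± 0.16 for Yars and -0.69 ± 0.23 for Nars (limma, adjusted p = 0.0335 and 0.0398). Yars lost its call when NCD replicate 1, 2 or 3, or HCD replicate 2, 3 or 4, was left out (adjusted p from 0.0525 to 0.0872), and Nars when replicate 1, 3 or 5 of either group was (adjusted p from 0.0547 to 0.101).

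Wars is known for its induction by interferon gamma as well as for charging tryptophan. It measured 29.1, 22.8, 36.6, 27.3 and 25.1 FPKM in NCD and 20.6, 15.6, 16.5, 16.3 and 28.4 FPKM in HCD. HCD replicate 5 lay inside the NCD range, while the other HCD libraries were below all NCD libraries. Wars fell by 0.53 ± 0.18 on the log2 scale (limma, adjusted p = 0.0429). It passed only without NCD replicate 2 or HCD replicate 5 among the 10 fits that left out 1 library, with adjusted p from 0.0114 to 0.114. Of 15 tested genes of a list known to respond to interferon gamma, 3 were higher and 0 were lower, with a median difference of 0.18. At an unadjusted p under 0.05 the counts were 5 and 0, and the share of all tested genes at that threshold was not computed. At the adjusted threshold 7.13% of all tested genes were higher and 19.2% were lower, and the median over all tested genes was -0.19. With mitochondrially encoded genes left out 4 of the 15 were higher and their median was 0.33, and after quantile normalization 3 were higher and it was 0.36, against 8.95% and 8.99% of all tested genes higher. The tryptophan-degrading enzyme Ido1 went from 0.389 ± 0.426 to 3.38 ± 0.970 FPKM (SD, n = 5), with NCD replicate 4 listed at 0, and rose by 1.67 on the log2 scale (limma, adjusted p = 0.000486). The GTPase Irgm2 was higher by 0.72 on the log2 scale (limma, adjusted p = 0.0217). Irf1, a transcription factor of the response, was at 82.9 FPKM in NCD and 78.9 FPKM in HCD (difference -0.068).

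The other 9 cytosolic members did not pass. Besides Lars, Rars, Dars and Eprs, they were Hars (histidine), Aars (alanine), Tars (threonine), Vars (valine) and Cars (cysteine), with differences of -0.45, -0.35, -0.33, -0.22 and -0.15. The 95% intervals of Cars and Lars ran from -0.63 to 0.33 and from -0.60 to 0.31, so these data do not settle their direction. By the fold of the catalytic domain, 5 of 9 class I enzymes and 6 of 10 class II enzymes were lower, against 19.2% of all tested genes. Their medians were -0.44 and -0.53. With mitochondrially encoded genes left out 1 of 9 and 2 of 10 were lower, against 8.35% of all tested genes. After quantile normalization 2 of 9 and 2 of 10 were lower, against 8.56%. In 8 cytosolic members every HCD library was below every NCD library, a pattern found in 12.9% of all tested genes. With mitochondrially encoded genes left out of the scaling it held for 2 members, Farsa and Iars, and for 6.00% of tested genes.

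Cars2, the mitochondrial cysteinyl enzyme at chr8:11513977-11550783, was the mitochondrial member with the smallest p. It measured 22.7, 17.0, 18.97, 18.4 and 18.04 FPKM in NCD and 9.60, 9.25, 11.5, 8.98 and 13.5 FPKM in HCD. All HCD libraries were below all NCD libraries on both scales, and HCD replicate 5 was the nearest. The mean fell from 19.01 ± 2.17 to 10.6 ± 1.92 FPKM (SD, n = 5), and the log2 difference was -0.80 ± 0.15 (limma, adjusted p = 0.00231). Its transcript overlaps that of Naxd, a metabolite repair enzyme, by 217 bases, and Naxd was lower too, by 0.38 on the log2 scale (limma, adjusted p = 0.0306).

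Yars2 and Sars2, which charge tyrosine and serine tRNAs in mitochondria, also fell. Yars2 was at 10.1, 3.84, 13.8, 8.36 and 4.86 FPKM in NCD and at 3.76, 3.33, 3.51, 3.49 and 3.44 FPKM in HCD. The HCD libraries were nearly alike, the NCD libraries were widely spread, and NCD replicate 2 was just above the highest HCD library. Sars2 was at 14.3, 17.0, 13.2, 9.77 and 11.01 FPKM in NCD and at 7.46, 9.72, 5.59, 6.31 and 8.79 FPKM in HCD. HCD replicate 2 and NCD replicate 4 nearly met, without overlap. The differences were -0.91 ± 0.26 for Yars2 and -0.71 ± 0.19 for Sars2 (limma, adjusted p = 0.0218 and 0.0132). Yars2 missed the threshold without NCD replicate 1 or 3 (adjusted p = 0.0602 and 0.0550), and Sars2 passed in all 10 such fits. Neither passed with mitochondrially encoded genes left out of the scaling.

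Tars2 and Fars2, for threonine and phenylalanine, were the other 2 mitochondrial members that passed. Tars2 measured 27.4, 24.7, 25.9, 17.2 and 20.2 FPKM in NCD and 18.5, 13.7, 13.1, 15.6 and 16.6 FPKM in HCD. NCD replicate 4 lay below HCD replicate 1. Fars2, a single-chain enzyme unlike its cytosolic counterpart, measured 30.1, 23.6, 28.3, 18.7 and 19.6 FPKM in NCD and 17.5, 15.3, 14.7, 18.2 and 18.2 FPKM in HCD. The groups came close without overlapping. Tars2 fell by 0.54 ± 0.16 and Fars2 by 0.48 ± 0.15 on the log2 scale (limma, adjusted p = 0.0225 and 0.0363). Tars2 lost its call with NCD replicate 1 or 3, or HCD replicate 3, left out (adjusted p from 0.0539 to 0.0626), and Fars2 with replicate 1, 2 or 3 of either group left out (adjusted p from 0.0507 to 0.0975).

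Lars2, the mitochondrial leucyl enzyme at chr9:123366927-123462666, was the most abundant member, and its HCD mean was the higher one. It measured 80.8, 187, 112, 169.8 and 221 FPKM in NCD and 131, 378, 142, 315 and 560.1 FPKM in HCD. HCD replicates 2, 4 and 5 were above every NCD library, and HCD replicates 1 and 3 lay inside the NCD range. The means were 154 ± 57.0 and 305 ± 178 FPKM (SD, n = 5), and the difference of 0.85 did not pass (95% interval from 0.044 to 1.66, limma adjusted p = 0.110). It passed without HCD replicate 1, at 1.10 (adjusted p = 0.0435, in a range from 0.00357 to 0.287 over the alternatives). HCD replicate 1, with the highest share of mitochondrially encoded transcripts at 29.5%, had the lowest Lars2 level of its group. HCD replicate 3, with the lowest share of its group at 14.8%, had the next lowest Lars2 level. A relation between that share and Lars2 was not tested. The annotated Lars2 transcript shares 72 bases at 98.6% identity with the antisense gene Gm15564, which was not analysed here, and fragments of that stretch cannot be assigned to either gene here.

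At the low end of the mitochondrial class, Mars2 was under the minimum for testing. It measured 0.796, 0.502, 1.23, 0.762 and 0.618 FPKM in NCD and 0.5004, 0.894, 0.396, 0.599 and 0.999 FPKM in HCD, with overlapping groups. Wars2, the mitochondrial partner of Wars, was at 2.19, 0.916, 2.04, 0.582 and 2.41 FPKM in NCD and at 0.960, 1.46, 1.08, 1.29 and 1.80 FPKM in HCD. The HCD libraries lay within the NCD range, and the difference of -0.13 did not pass (limma, adjusted p = 0.725). The remaining 8 mitochondrial members did not pass either. Pars2, for proline, was higher in the HCD mean, with 1.36 against 1.99 FPKM and a difference of 0.33. Ears2, Aars2, Rars2, Hars2, Iars2, Vars2 and Nars2 had negative differences between -0.56 and -0.24. Ears2 passed without NCD replicate 4, and Aars2 and Hars2 without NCD replicate 2 (adjusted p = 0.0396, 0.0444 and 0.0404, in ranges up to 0.932, 0.744 and 0.637 over the alternatives). In 4 of 16 mitochondrial members, Cars2, Fars2, Sars2 and Yars2, every HCD library was below every NCD library, against 12.9% of all tested genes. With mitochondrially encoded genes left out of the scaling that held for 1 of 16, Cars2, near the 6.00% of all tested genes.

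The mean log2(FPKM + 1) over the 20 cytosolic members was 4.09 ± 0.247 in NCD and 3.57 ± 0.190 in HCD (SD, n = 5), and over the 16 mitochondrial members it was 3.09 ± 0.256 and 2.75 ± 0.150. The cytosolic mean exceeded the mitochondrial mean by 1.01 ± 0.061 in NCD and by 0.826 ± 0.109 in HCD. Without Lars2 these gaps were 1.28 ± 0.091 and 1.18 ± 0.112. The difference between the classes was not tested. The highest and lowest values of the members often fell in the same libraries of a group. NCD replicates 1 and 3 held the highest value of their group for 14 and 17 of the 36 members, and NCD replicates 2 and 4 the lowest for 18 and 16. In HCD, replicate 3 was lowest for 21 members and replicate 5 highest for 13. Such counts were not computed over all genes. The mean log2(FPKM + 1) over all tested genes was also highest in NCD replicates 1 and 3 (3.68 and 3.70). It was lowest in NCD replicates 2 and 4 (3.55 and 3.55). Within HCD that mean was lowest in replicate 1 (3.39) and highest in replicate 4 (3.57).

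For 13 amino acids both a cytosolic and a mitochondrial member could be set side by side. The cytosolic enzyme was the more abundant in the NCD means of 10 pairs, by 17.3 times for Wars over Wars2 and 15.5 times for Mars over Mars2. Cysteine, threonine and leucine were the exceptions, where the mitochondrial enzyme was higher in all 10 libraries. The NCD means of Cars2, Tars2 and Lars2 were 2.33, 3.58 and 61.6 times those of Cars, Tars and Lars. Annotated transcripts of Cars, Cars2 and Lars2 share bases with other genes, and those of Hars and Hars2 share 195 bases with each other. The division of such fragments bears on the ratios of these pairs. The log2 ratio of the pair was lower in HCD for 5 of 13 pairs, with a median change of 0.071. Iars over Iars2 changed from a ratio of means of 1.46 in NCD to 0.968 in HCD, and this was the pair whose HCD ratios all lay below its NCD ratios. The margin was narrow, with 1.25 in HCD replicate 1 against 1.34 in NCD replicate 1, and HCD replicate 4 was lowest at 0.589. How often ratios of other genes separate in this way was not computed. The annotated Iars2 transcript shares 2034 of its 5471 bases with the overlapping gene Rab3gap2, at a mean of 11.4 FPKM, and the Iars transcript shares bases with a pseudogene, so the division of fragments bears on this ratio. Ratios within a library do not depend on its scaling.

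**Figure D3:**
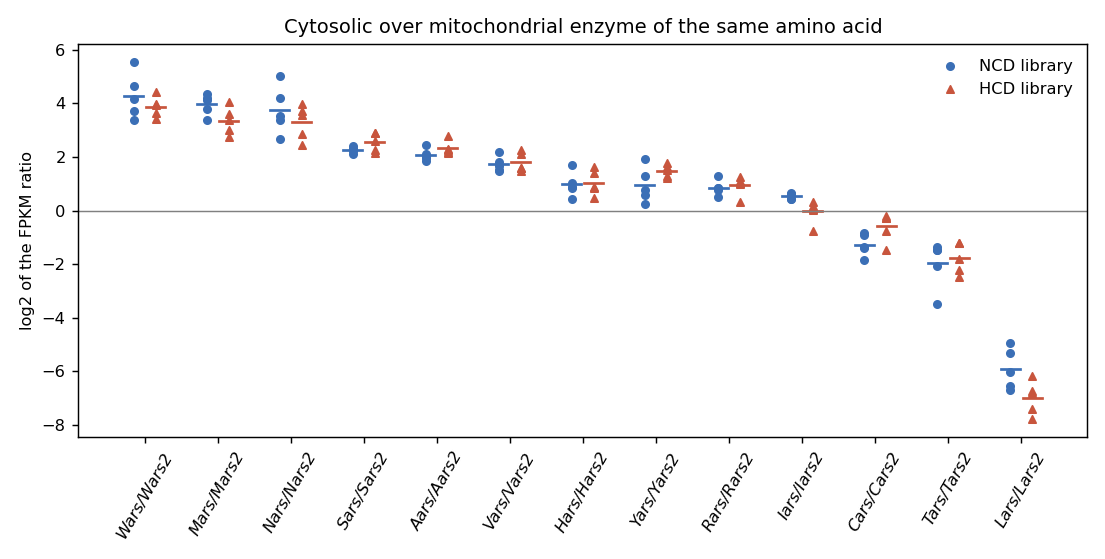
The log2 of the ratio of the cytosolic to the mitochondrial enzyme for the same amino acid in each of the 5 NCD (circles) and 5 HCD (triangles) libraries, with bars for group means. Points above 0 mean more cytosolic transcript. Cysteine, threonine and leucine pairs lie below 0 in all 10 libraries, and the HCD points of the isoleucine pair lie below its NCD points.

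The transcripts of all 3 listed scaffold proteins of the multi-synthetase complex were lower in HCD, against 19.2% of all tested genes. Aimp1 (p43), which helps hold the complex and binds tRNA, measured 44.8, 31.2, 45.3, 41.3 and 35.3 FPKM in NCD and 22.8, 27.4, 23.6, 20.3 and 22.1 FPKM in HCD. Aimp2 (p38), its central scaffold, measured 47.0, 42.8, 36.4, 30.7 and 30.4 FPKM in NCD and 22.3, 19.2, 19.6, 13.4 and 23.1 FPKM in HCD. The groups did not overlap for either gene. Eef1e1 (p18), which ties Mars to the complex, was at 10.8, 6.33, 9.90, 6.61 and 3.67 FPKM in NCD and at 3.26, 2.41, 3.38, 2.79 and 2.73 FPKM in HCD. NCD replicate 5 was close to the HCD range and still above it. The falls were 0.74 ± 0.14, 0.91 ± 0.17 and 1.04 ± 0.23 on the log2 scale (limma, adjusted p = 0.00254, 0.00259 and 0.00618), and all 3 also passed on the other 2 scales. Their median was -0.91 as deposited, against -0.19 over all tested genes.

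Further genes of tRNA charging and repair had 7 of 14 members lower and 0 higher, with a median of -0.51, against 19.2% lower and a median of -0.19 over all tested genes. At an unadjusted p under 0.05, 8 were lower and 0 higher, and the share of all tested genes at that threshold was not computed. With mitochondrially encoded genes left out 3 were lower, against 8.35% of all tested genes, and after quantile normalization 4, against 8.56%. Pstk, the kinase on the route to selenocysteine tRNA, fell from 20.7 ± 5.74 to 10.3 ± 1.49 FPKM (SD, n = 5). Ptrh2, a hydrolase that frees tRNA from stalled peptides, fell by 0.87 on the log2 scale. Qrsl1, a subunit of the amidotransferase that makes mitochondrial glutaminyl-tRNA, fell by 0.72 (limma, adjusted p = 0.00414 for Pstk, 0.0121 for Ptrh2 and 0.0276 for Qrsl1).

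Some of the factors that bring charged tRNAs to the ribosome or act there were lower as well. Of 8 cytosolic elongation and release factors, 5 were lower as deposited, 2 with mitochondrially encoded genes left out and 1 after quantile normalization, where 19.2%, 8.35% and 8.56% of all tested genes were lower. The median of these factors was -0.55 as deposited. Eef1b2, a guanine nucleotide exchange factor for eEF1A, fell from 262 ± 63.0 to 127 ± 20.1 FPKM and passed on all 3 scales, and Eef1g, a subunit of the same exchange complex, fell from 284 ± 59.1 to 170.2 ± 22.3 FPKM (SD, n = 5; limma, adjusted p = 0.00118 and 0.00447). Of 7 tested mitochondrial translation factors, 3 were lower as deposited, 2 with mitochondrially encoded genes left out and 3 after quantile normalization, against the same shares of all genes, and their median was -0.60 as deposited. Tufm, the mitochondrial elongation factor Tu, was at 142, 140.1, 134, 136 and 121 FPKM in NCD and at 95.2, 86.8, 79.1, 96.2 and 85.3 FPKM in HCD. The groups were well apart, and the fall was 0.60 ± 0.11 on the log2 scale (limma, adjusted p = 0.00188). Its exchange factor Tsfm and the ribosome recycling factor Mrrf fell by 0.80 and 0.76 (limma, adjusted p = 0.00406 and 0.0134).

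The cytosolic members listed as ATF4-responsive in other cells had 7 of 13 lower, and the remaining cytosolic members 4 of 7, with medians of -0.51 and -0.47. With mitochondrially encoded genes left out these counts were 1 of 13 and 2 of 7, against 8.35% of all tested genes. Atf4 itself measured 519, 416, 424, 338 and 358 FPKM in NCD and 193, 199, 259.8, 228 and 244 FPKM in HCD. No HCD library came near the NCD range, and the fall was 0.86 ± 0.14 on the log2 scale (limma, adjusted p = 0.00109). Among 23 tested non-synthetase genes known to respond to ATF4, 7 were lower and 1 was higher, with a median of -0.31, against 19.2% lower, 7.13% higher and a median of -0.19 over all tested genes. Aldh18a1, of proline synthesis, fell from 130.03 ± 19.9 to 44.5 ± 10.3 FPKM, Ddit3 from 111 ± 19.99 to 64.7 ± 9.81 FPKM, and the asparagine synthetase gene Asns from 17.6 ± 6.52 to 9.82 ± 2.58 FPKM (SD, n = 5; limma, adjusted p = 9.24e-05, 0.00314 and 0.0361). Trib3, a pseudokinase induced by ATF4 and CHOP, was higher by 0.75 (limma, adjusted p = 0.00430). Psat1, of serine synthesis, and Chac1, which degrades glutathione, did not pass, at 1.499 and 3.14 FPKM in NCD and 1.15 and 4.09 FPKM in HCD. With mitochondrially encoded genes left out 3 of the 23 genes of this list were lower and 1 was higher, with a median of -0.15, against 8.35% lower, 8.95% higher and a median of -0.050 over all tested genes. On that scale the share of lower genes was near the background for the ATF4-responsive synthetases. Their median there was -0.35, with 12 of 13 differences negative, against -0.050 and 55.3% over all tested genes. The remaining 7 cytosolic members had a median of -0.32. For the list of 23 genes the share of lower genes was above the background by few genes, and the excess was not tested. After quantile normalization 2 of the 13 synthetases and 4 of the 23 genes of this list were lower, against 8.56% of all tested genes. Of the same lists 0 and 1 were higher, against 8.99%.

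**Figure D4:**
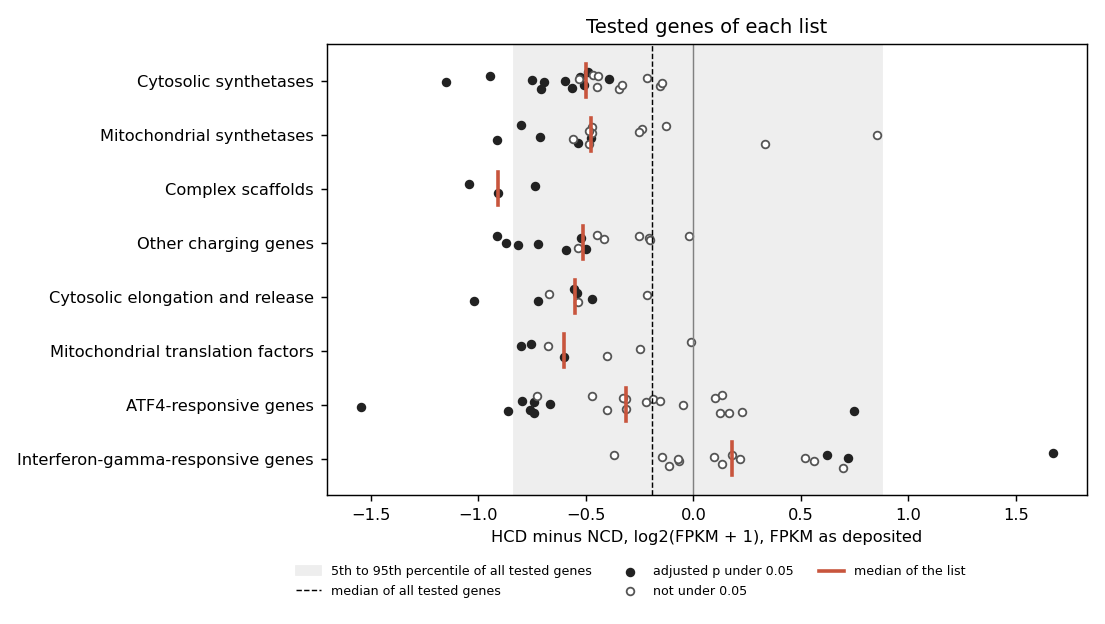
The HCD minus NCD difference in log2(FPKM + 1), FPKM as deposited, of each tested gene in 8 lists, filled where the adjusted p was under 0.05, with a bar for the median of each list. The shaded band spans the 5th to 95th percentile of all tested genes and the dashed line their median of -0.19. The list medians of the synthetases lie at -0.50 and -0.48, that of the scaffolds at -0.91, and that of the interferon-gamma list at 0.18.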

How the data were processed

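The authors deposited 1 table of FPKM, scaled by them to transcript length and library size. The submitters' processing notes name HISAT2, StringTie and GRCm38. The sources used here give no version, filter or strand setting. The depth of the libraries is unknown, and counting intervals were not computed. FPKM summed to between 539751 and 634279 per library.

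Libraries were grouped by title. Genes whose mean over the 10 libraries reached 1 FPKM were tested as log2(FPKM + 1) with limma 3.58.1 in R 4.3.3 (lmFit, eBayes with trend). Tests were two-sided, adjusted by Benjamini-Hochberg over 10321 genes, with a threshold of 0.05. Fold differences of low genes are understated on this scale. The procedure was checked on simulated data. Genes were drawn there independently, without effects shared within a library or a shift in the mitochondrial share, so the check does not cover those features. Lists are described by counts, and lists other than cell markers also by medians, beside those of all genes. Members and lists were chosen with earlier results of these data known. Values per library are given for members that passed, the extremes of each class, Wars and Wars2, and some related genes. Other related genes were the up to 4 of each list with the smallest p, or named in advance. Alternatives changed the pseudocount, filter, scaling, spread, pairing, replicates and column runs. Gene coordinates come from GENCODE M21 and promoters from RefSeq, both on GRCm38. Overlaps were read from annotated transcripts. Some genes of the related lists are not reported here by name.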

Additional observations from a re-analysis of the deposited data

Results flagged for a closer look

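Among 72 groups of 5 libraries, 1 per member and title, 3 held a library far from the other 4 by Dixon's test. Chance alone marks about 1 group in 20. Cars was 4.18 FPKM in HCD replicate 3 and between 7.72 and 8.05 FPKM in the other HCD libraries. Gars was 18.6 FPKM in HCD replicate 4 and between 29.8 and 34.3 FPKM in the others. Rars2 was 9.00 FPKM in HCD replicate 2 and between 3.12 and 4.69 FPKM in the others. Gars still fell without HCD replicate 4, with a difference of -0.45 (limma, adjusted p = 0.0297, in a range from 0.0101 to 0.287 over the alternatives). Cars and Rars2 passed under none of the alternatives listed below.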

How the results depend on the processing

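The number of cytosolic members lower in HCD, 11 as tested, was 3 with mitochondrially encoded genes left out of the scaling, 4 after quantile normalization, 6 within replicates 1 to 3 and 0 within replicates 4 and 5. It ran from 7 to 10 when 1 library was left out, with 7 without NCD replicate 1, NCD replicate 3 or HCD replicate 3. For the mitochondrial members, 5 as tested, the count was 3 without a filter on low values, 1 with mitochondrially encoded genes left out, 2 after quantile normalization, 0 within replicates 4 and 5, and from 2 to 6 when 1 library was left out, with 2 without NCD replicate 1 or 3 and 3 without HCD replicate 3. Higher mitochondrial members numbered from 0 to 1 when 1 library was left out, with Lars2 higher without HCD replicate 1. The cytosolic median was -0.27 within replicates 4 and 5, and the mitochondrial median -0.71 within replicates 1 to 3, -0.11 within replicates 4 and 5 and -0.48 without Lars2, an alternative chosen after seeing the data. Over all genes, 861 were lower with mitochondrially encoded genes left out, 883 after quantile normalization, 1006 and 11 within the runs, and from 1319 (without NCD replicate 1) to 2036 when 1 library was left out. Higher genes numbered 433 with a minimum mean of 5 FPKM and 414 and 45 within the runs. Directions turned for Cars (0.00115 with mitochondrially encoded genes left out, with and without the replicate block, and from -0.31 to 0.00395 when 1 library was left out, positive without HCD replicate 3), Vars (0.024 after quantile normalization and 0.25 within replicates 4 and 5) and, within replicates 4 and 5, Ears2 (0.072), Nars2 (0.47), Vars2 (0.069) and Wars2 (0.12). The cause was not tested. The other pseudocounts, rescaling to a common sum, the fit without a trend and the run as a covariate moved no count of members by over 1.5 times.

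The replicate numbers did not pair the libraries: same-numbered libraries correlated at 0.218, -0.235, -0.197, 0.00793 and 0.0962, and 1 of 5 correlated best with its own number. With the replicate block 7 cytosolic members were lower and 1 mitochondrial member, Lars2, was higher. With the block and mitochondrially encoded genes left out, 2 cytosolic and 1 mitochondrial member were lower, 1 mitochondrial member was higher, and 672 of all genes were lower.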
